A study of Mus musculus with 24 samples.

Results

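The comparison described here is the genotype by time interaction between 8 and 24 h of activation in mouse CD8+ T cells. It is the change from 8 to 24 h in libraries labelled Tcf7 cKO minus the change over the same hours in libraries labelled WT. Its members were taken by sample title and are 12 of the 24 libraries of the series, 3 in each of the groups cKO at 8 h, cKO at 24 h, WT at 8 h and WT at 24 h. The cKO animals are mice 1 to 3 (E8i-cre+, Tcf7FL/FL, OTI+) and the WT animals are mice 4 to 6 (E8i-cre-, Tcf7FL/FL, OTI+). Both genotypes thus carry the OT-I T cell receptor transgene and floxed Tcf7 alleles, and they differ in a cre transgene driven by the E8i enhancer of the Cd8 locus, which is active in mature CD8+ T cells. The cre transgene and the deletion it makes cannot be told apart in this design. Cells from spleen and lymph nodes were enriched with CD8 microbeads and cultured with murine IL2 (6 ng/mL) on plates coated with antibodies to CD3 and CD28 (1 ug/mL), and 1000 sorted cells made each Smart-seq2 library. In its title the study places TCF1, the protein made from Tcf7, and CXCR6 on an axis that regulates co-stimulation through CD28.

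TCF1 is a DNA-binding factor of the TCF/LEF family that keeps naive and stem-like T cells in their state, and its RNA is known to decline when T cells are activated. In the early hours after stimulation through CD3 and CD28, CD8+ T cells express immediate early genes and cytokines; over the following hours they grow, replicate DNA and enter mitosis. A genotype by time interaction asks which genes take a different course through that late phase, and a gene that is higher or lower by the same ratio at both times gives a value near 0.

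The 12 libraries held 5846265 to 9700397 expected counts each. The 8 h libraries had counts for 15094 to 16178 genes and the 24 h libraries for 13659 to 14040. The ribosomal RNA gene Rn45s took 14.2 to 17.2% of counts at 8 h and 7.39 to 9.54% at 24 h. On the leading principal component of all 24 libraries, which carried 55% of the variance and ordered them by time, the 8 h libraries of cKO mouse 2 (24.0) and WT mouse 5 (25.8) lay nearer the 24 h libraries (94.6 to 97.9) than the other 8 h libraries did (5.14 to 14.4). Where leaving both out moved a named interaction by over 1.5 times, the value without them is given beside it. All 5 measured markers of CD8+ T cells were present in every library, with summed levels of 1247 to 1454 TPM in cKO, with 1001 to 1197 TPM in WT at 8 h, and of 953 to 1052 TPM in cKO, with 884 to 926 TPM in WT at 24 h.

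Tcf7 was the 1 gene whose change from 8 to 24 h was called different between the genotypes. The interaction was called for 1 of 11470 genes tested, 0.00872% of them (edgeR quasi-likelihood test over all 24 libraries, Benjamini-Hochberg adjusted p under 0.05), and that gene changed lower in cKO. No gene was called higher by edgeR, where 288 genes (2.51%) had a positive interaction and 222 genes (1.94%) a negative one at an unadjusted p under 0.05. DESeq2 called the same 1 gene lower and 0 higher. Together the unadjusted count is 510 genes, or 4.45% of those tested. The next smallest adjusted p after that of Tcf7 was 0.972. Across all genes the interaction had a median of 0.04 on the fitted log2 scale, with quartiles of -0.16 and 0.19, and 56.7% of genes had a positive value. The median standard error was 0.245, and the median size of the interaction without regard to sign was 0.18.

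The change over time itself was large and shared. From 8 to 24 h, 6573 genes (57.3%) changed in cKO, 2887 rising (25.2%) and 3686 falling (32.1%), and 6734 genes (58.7%) changed in WT, 2828 rising (24.7%) and 3906 falling (34.1%). In both genotypes 5568 genes were called, 2407 rising in both and 3161 falling in both, and 0 were called in opposite directions. Those 5568 genes are 84.7% of the cKO calls and 82.7% of the WT calls. The cKO and WT changes rest on separate mice. The median size of the change was 0.53 in cKO and 0.55 in WT on the log2 scale. The split between rising and falling genes differed between fits. For the change from 8 to 24 h in cKO, rising genes were 43.9% of the calls here, 50.0% with limma on log2(TPM + 1) and 50.8% with edgeR on the 12 libraries alone. For the change from 8 to 24 h in WT they were 42.0% here, 52.3% with limma and 51.4% with the 12 libraries.

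**Figure D1:**
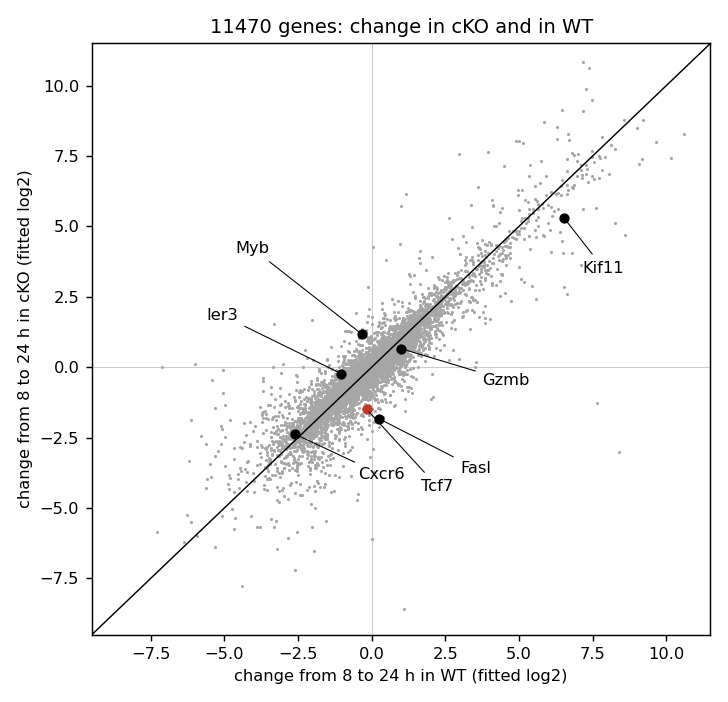
Change from 8 to 24 h (fitted log2) in cKO on the vertical axis and in WT on the horizontal axis, 1 point per gene for the 11470 genes tested; the diagonal marks equal changes. Tcf7 (red), with -1.50 in cKO and -0.17 in WT, is the 1 gene whose distance from the diagonal passed the test, and the 6 black points (Myb, Ier3, Kif11, Gzmb, Cxcr6 and Fasl) did not pass it.

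Tcf7 RNA fell from 8 to 24 h in the libraries labelled cKO, while its change in those labelled WT was smaller and did not pass the test. Tcf7 lies on the minus strand of chromosome 11 (mm10) from 52252371 to 52283014. The 8 h levels were 127, 73.6 and 108 TPM in mice 1, 2 and 3 (cKO), against 87.4, 52.6 and 81.3 TPM in mice 4, 5 and 6 (WT). The 24 h levels were 37.5, 35.7 and 38.3 TPM in the same cKO mice, against 62.6, 77.0 and 68.8 TPM in the same WT mice. The genotypes overlapped at 8 h and were separate at 24 h, where every cKO library lay below every WT library. The lowest 8 h library of each genotype was that of mouse 2 and of mouse 5, the libraries nearest to 24 h on the principal component.

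The fitted change of Tcf7 was -1.50 in cKO (adjusted p = 3.49e-11) and -0.17 in WT (adjusted p = 0.241). The interaction was -1.33 (SE 0.176, 95% interval -1.69 to -0.97, edgeR adjusted p = 0.00032). By mouse, the change on the TMM-scaled log2 CPM scale was -1.79, -1.18 and -1.44 in cKO mice 1, 2 and 3, a mean of -1.47 ± 0.30 (SD, n = 3). It was -0.45, 0.33 and -0.35 in WT mice 4, 5 and 6, a mean of -0.16 ± 0.42 (SD, n = 3). Every cKO mouse fell further than any WT mouse, and of the WT mice 1 had a positive value. An exact two-sided permutation test over these 6 values gave p = 0.1, the smallest that 3 against 3 mice allow.

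The call for Tcf7 depended on how its spread was estimated, while the size of the difference varied little. Over 15 alternatives the interaction stayed between -1.47 and -1.10, and 12 of them called it. With mouse as a replicate block over the 12 libraries of 8 and 24 h, which pairs the 8 and 24 h libraries of each animal, it was -1.35 with adjusted p = 0.307 in edgeR. With the same 12 libraries and no block it was -1.37 (edgeR adjusted p = 0.615), and without mouse 3 it was -1.39 (edgeR adjusted p = 0.356). Without the 8 h libraries of mice 2 and 5 it was -1.35 with adjusted p = 6.71e-08. The comparison was chosen with the parting of Tcf7 at 24 h already known from these libraries, so the call describes that parting and is no independent evidence for it.

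The gene-level counts do not check the deletion, because they sum over the whole gene and are not split by exon. Tcf7 RNA was not called lower in cKO at 8 h (log2 0.43 against WT, edgeR adjusted p = 0.184) and was called lower at 24 h (-0.90, edgeR adjusted p = 0.000221). Before activation it was at 695 ± 21.0 TPM in cKO, with 540 ± 35.6 TPM in WT (SD, n = 3 each), so the labels go against gene-level RNA at that time, and cKO is used here as a label. The annotation of mm10 places the antisense gene A630014C17Rik (52276055 to 52286179, plus strand) and the lincRNA Gm26551 across parts of Tcf7, and neither is among the genes counted. Smart-seq2 does not mark strand, so reads from Tcf7 and from A630014C17Rik cannot be told apart where these genes overlap.

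**Figure D2:**
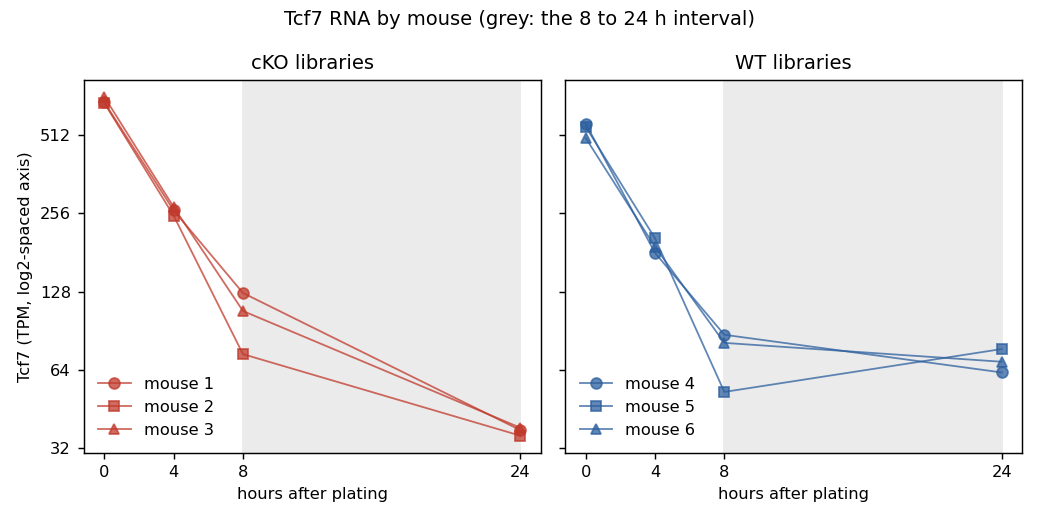
Tcf7 level in TPM (log axis) at 0, 4, 8 and 24 h after plating, with 1 point per library; lines join the libraries of a mouse, cKO mice 1 to 3 in the left panel and WT mice 4 to 6 in the right one, and grey marks the hours compared. The groups overlap at 8 h, and at 24 h the cKO libraries (35.7 to 38.3 TPM) lie below the WT libraries (62.6 to 77.0 TPM).

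The genes with the next smallest interaction p were read by level and name until 20 were named, Tcf7 included, and none of these 19 was called (edgeR adjusted p = 0.972 for each). Their interactions ran from 0.47 to 2.87 in size, 7 positive and 12 negative. In 17 of the 19 the per-mouse changes of the genotypes did not overlap, 6 with cKO higher and 11 with cKO lower; among all genes tested 9.63% did not overlap, 5.71% with cKO higher and 3.92% with cKO lower. They had been picked by this same contrast, so nothing is read from that count. In 13 of the 19 the fitted change had the same sign in both genotypes. In 16 of the 19 the genotype difference was larger at 8 h than at 24 h, and in 16 it had opposite signs at the 2 times. The choice of genes by this contrast favours opposite signs, so nothing is read from that count either. The contrast weighs both times alike, so the choice does not by itself account for a larger difference at 8 h. Among all genes tested, 21 differed between the genotypes at 8 h and 12 at 24 h (edgeR adjusted p under 0.05). Whether the 19 depart from all genes in this was not tested, and nothing is read from it. All 19 kept the sign of the interaction without the 8 h libraries of mice 2 and 5, where the smallest edgeR adjusted p among them was 0.961.

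**Figure D3:**
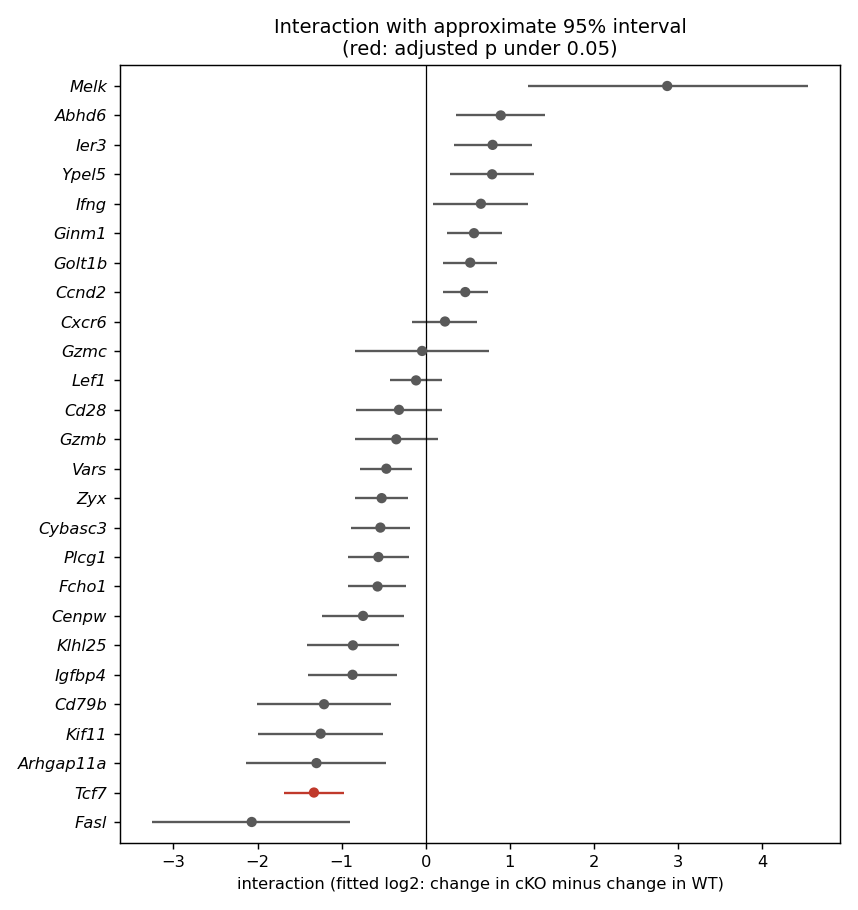
Fitted interaction (log2, change in cKO minus change in WT) with its approximate 95% interval for Tcf7, the 19 genes with the next smallest p and the genes followed whatever their values. Tcf7 (red) is the 1 gene that passed at an adjusted p under 0.05; among the rest, intervals that leave out 0 are unadjusted.

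The 19 genes are described in turn by what each is known to do, and no theme among them was tested. Kif11, the 1 of them in the mitosis list and the kinesin that separates spindle poles (chromosome 19, 37376403 to 37421859, plus strand), was at 0.87, 0.53 and 0.87 TPM in cKO, with 0.31, 0.22 and 0.53 TPM in WT at 8 h. By 24 h its levels were 32.2, 31.0 and 27.7 TPM in cKO, with 33.8, 35.7 and 37.9 TPM in WT. At 8 h the lowest cKO library equalled the highest WT library, and at 24 h every cKO library lay below every WT library. The 8 h values rest on 45 counts in cKO and 23 in WT. Its fitted change was 5.29 in cKO and 6.54 in WT, and the interaction was -1.25 (SE 0.366), against -0.61 with limma on log2(TPM + 1). Arhgap11a, a GTPase-activating protein of dividing cells, had 93 counts in cKO and 42 in WT at 8 h, with an interaction of -1.30 (SE 0.411; -0.67 with limma), and its per-mouse changes overlapped between genotypes. Cenpw, a centromere protein, was at 7.66 ± 0.96 TPM in cKO, with 4.74 ± 0.63 TPM in WT at 8 h (SD, n = 3 each), and at 60.8 ± 1.69 TPM in cKO, with 66.1 ± 5.05 TPM in WT at 24 h. Its interaction was -0.75 (SE 0.239).

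Melk, a kinase of proliferating cells (chromosome 4, 44300876 to 44364675, plus strand), ran the other way. Its 8 h levels were 0.08, 0.08 and 0.09 TPM in cKO, with 1.10, 0.48 and 0.56 TPM in WT, without overlap. Those levels rest on 3 counts in cKO and 26 in WT, a ratio of 0.126. Its exact 95% counting interval of 0.0243 to 0.41 covers counting error only and leaves out the spread between mice. Melk was picked by the contrast that uses these counts, so the interval is no evidence of a difference at 8 h. Its counts were 35 in cKO and 9 in WT at 0 h, and 13 in cKO and 13 in WT at 4 h. At 24 h the genotypes were close, at 40.3 ± 4.00 TPM in cKO, with 42.2 ± 0.86 TPM in WT (SD, n = 3 each). The fitted interaction was 2.87 (SE 0.818), against 0.57 with limma on log2(TPM + 1). Ccnd2, cyclin D2 of the G1 phase (chromosome 6, 127125162 to 127152193, minus strand), was measured at far higher depth. It fell in both genotypes, to 213 ± 3.92 TPM in cKO, with 178 ± 5.94 TPM in WT at 24 h, after 259 ± 22.3 TPM in cKO, with 286 ± 13.1 TPM in WT at 8 h (SD, n = 3 each). Its change was -0.33 in cKO and -0.80 in WT, and the interaction was 0.47 (SE 0.133).

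Plcg1, phospholipase C gamma 1 downstream of the T cell receptor (chromosome 2, 160731300 to 160775760, plus strand), was at 16.4, 14.1 and 17.5 TPM in cKO, with 13.0, 9.93 and 11.2 TPM in WT at 8 h. Its 24 h levels were 11.2, 12.8 and 10.3 TPM in cKO, with 12.7, 11.9 and 12.7 TPM in WT. The genotypes were separate at 8 h and overlapped at 24 h. It fell in cKO (-0.53, edgeR adjusted p = 0.000522), its WT change was 0.03 (edgeR adjusted p = 0.832), and the interaction was -0.56 (SE 0.179). Zyx, which encodes the actin-binding protein zyxin, had a like course, with a change of -0.46 in cKO and 0.06 in WT and an interaction of -0.52 (SE 0.154). Ier3, an immediate early gene (chromosome 17, 35821684 to 35822923, plus strand), was at 35.5, 20.6 and 36.9 TPM in cKO, with 51.6, 55.5 and 54.2 TPM in WT at 8 h. By 24 h its levels were 29.1, 27.0 and 24.3 TPM in cKO, with 24.1, 30.8 and 30.1 TPM in WT. The cKO libraries lay below all WT libraries at 8 h and overlapped them at 24 h. Ier3 fell in WT (-1.03, edgeR adjusted p = 7.92e-07), its cKO change was -0.24 (edgeR adjusted p = 0.226), and the interaction was 0.79 (SE 0.228). Without the 8 h libraries of mice 2 and 5 it was 0.50; the mouse 2 library was the lowest of the cKO libraries at 8 h.

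The other genes of the 19 fall in no single group. Igfbp4, a secreted protein that binds insulin-like growth factors, rose in both genotypes, by 0.92 in cKO and 1.79 in WT, with an interaction of -0.87 (SE 0.256). Ypel5 fell in both, with changes of -2.10 in cKO and -2.89 in WT and an interaction of 0.79 (SE 0.248). Ginm1 fell in both as well, with changes of -0.45 in cKO and -1.02 in WT and an interaction of 0.57 (SE 0.160). Vars, the cytosolic valine tRNA synthetase, rose by 0.74 in cKO and 1.21 in WT, with an interaction of -0.47 (SE 0.151). Fcho1, a protein of clathrin-mediated endocytosis, rose in WT (0.70) with a cKO change of 0.12, and its interaction was -0.57 (SE 0.171). Abhd6, a lipase, fell in WT (-0.79) with a cKO change of 0.10, and its interaction was 0.89 (SE 0.261). Golt1b, a vesicle transport protein, rose in cKO (0.65) with a WT change of 0.12, and its interaction was 0.53 (SE 0.161). Klhl25 rose in WT (0.65), while its change in cKO was -0.22 and missed the test. Cybasc3 fell in cKO (-0.29), while its change in WT was 0.25 and missed the test.

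**Figure D4:**
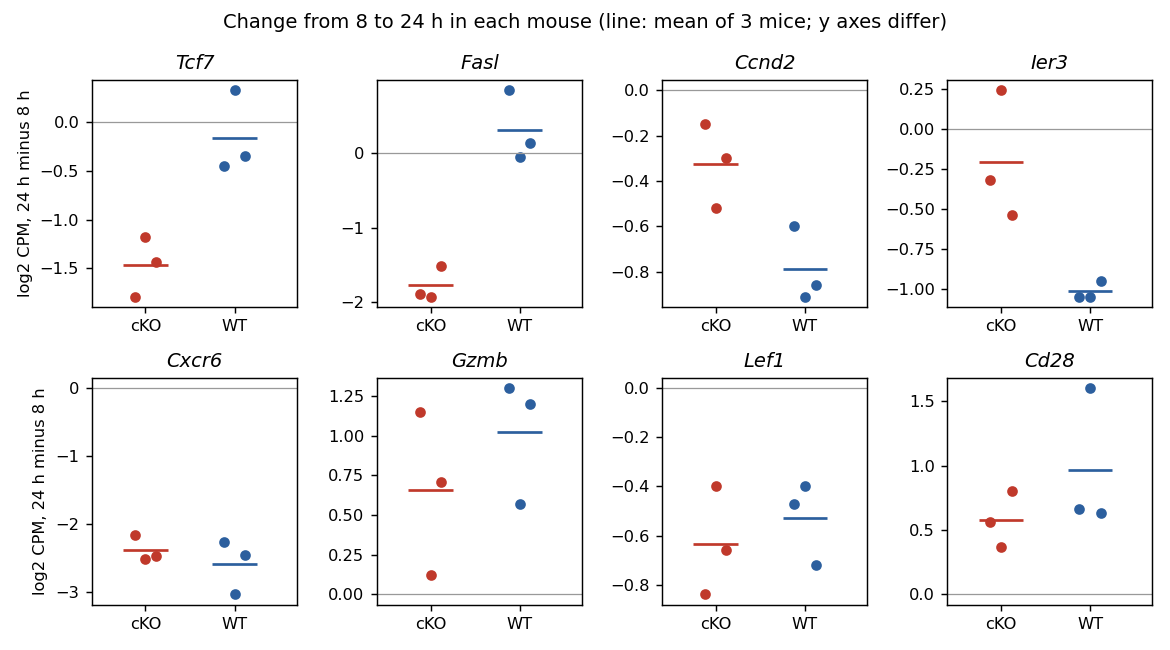
Change from 8 to 24 h in each mouse (TMM-scaled log2 CPM, 24 h minus 8 h), cKO mice 1 to 3 left of WT mice 4 to 6, in 1 panel per gene with a bar at the group mean; the vertical axes differ. For Tcf7 the cKO values run from -1.79 to -1.18 and the WT values from -0.45 to 0.33.

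The genes named by the study or called between genotypes elsewhere in it had no called interaction, Tcf7 apart. Fasl, whose product binds the death receptor FAS (minus strand of chromosome 1, 161780689 to 161788495), had the largest interaction among them. It was at 18.6, 15.9 and 15.4 TPM in cKO, with 0.16, 0.64 and 0.54 TPM in WT at 8 h. By 24 h its levels were 4.99, 4.44 and 5.18 TPM in cKO, with 0.47, 0.72 and 0.68 TPM in WT. The cKO libraries were above the WT libraries at both times without overlap, with a gap that was wider at 8 h (log2 5.04) than at 24 h (2.96). Fasl fell in cKO (-1.83, edgeR adjusted p = 4.50e-08), and its change in WT, which rests on 12 counts at 8 h and 20 at 24 h, was 0.25 (edgeR adjusted p = 0.704). The interaction of -2.07 (SE 0.579, 95% interval -3.25 to -0.90) was not called, with adjusted p = 0.972 in edgeR. On log2(TPM + 1), limma gave -1.76 with adjusted p = 0.00501, and over the other alternatives the adjusted p ran from 0.526 to 1.0.

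Cxcr6, a chemokine receptor of effector and resident T cells (chromosome 9, 123806475 to 123811760, plus strand), fell in both genotypes. It was at 252, 238 and 228 TPM in cKO, with 105, 119 and 115 TPM in WT at 8 h. Its 24 h levels were 57.5, 45.5 and 39.5 TPM in cKO, with 21.2, 16.7 and 22.5 TPM in WT. The cKO libraries were above the WT libraries at both times without overlap. Its change was -2.38 in cKO and -2.61 in WT, and the interaction was 0.23 (95% interval -0.16 to 0.61, edgeR adjusted p = 0.972). The interval thus reaches from a slightly larger to a moderately smaller fall in cKO and does not show that the changes are equal. Without the 8 h libraries of mice 2 and 5 the interaction was 0.15.

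Among the granzymes, the serine proteases of cytotoxic granules, Gzmb rose and Gzmc fell in both genotypes. Gzmb was at 548, 739 and 578 TPM in cKO, with 156, 186 and 148 TPM in WT at 8 h, and at 1241, 885 and 911 TPM in cKO, with 376, 320 and 367 TPM in WT at 24 h. Every cKO library was above every WT library at both times. Its interaction was -0.35 (95% interval -0.84 to 0.14). Gzmc was at 314 ± 60.9 TPM in cKO, with 86.2 ± 21.1 TPM in WT at 8 h, and at 19.6 ± 3.31 TPM in cKO, with 5.64 ± 1.77 TPM in WT at 24 h (SD, n = 3 each). Its interaction was -0.04 (95% interval -0.84 to 0.75), and its sign turned in 3 alternatives, among them that without the 8 h libraries of mice 2 and 5 (0.02). Gzmc has close paralogs in the granzyme cluster of chromosome 14, so reads could be split among them.

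Ifng, the gene of interferon gamma (chromosome 10, 118441046 to 118445892, plus strand), fell in both genotypes. It was at 533, 430 and 462 TPM in cKO, with 275, 342 and 383 TPM in WT at 8 h, and at 330, 215 and 276 TPM in cKO, with 114, 119 and 153 TPM in WT at 24 h. The cKO libraries were above all WT libraries at both times. Its change was -0.83 in cKO and -1.49 in WT, and the interaction was 0.66 (95% interval 0.09 to 1.22, unadjusted p = 0.0248, adjusted p = 0.972 in edgeR). Cd28, the co-stimulatory receptor engaged by the plate-bound antibody, rose in both genotypes, by 0.59 in cKO and 0.91 in WT, with an interaction of -0.32 (95% interval -0.83 to 0.19), which was -0.01 without the 8 h libraries of mice 2 and 5. Lef1, the TCF/LEF factor closest to TCF1 in T cells, fell in both, with changes of -0.65 in cKO and -0.53 in WT and an interaction of -0.12 (95% interval -0.42 to 0.19), which was -0.19 without those libraries.

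Of the 11470 genes, 21 differed between cKO and WT at 8 h (0.183%), of which 17 were higher (0.148%) and 4 lower in cKO (0.0349%), and 12 at 24 h (0.105%), of which 11 were higher (0.0959%) and 1 lower in cKO (0.00872%). The counts of genes called for cKO against WT at 8 h and for cKO against WT at 24 h moved with the fit, to 67 at 8 h and 27 at 24 h with DESeq2 and to 135 and 32 without a filter on low counts. At 8 h there were 32, 35, 66, 8 and 7 without mice 2, 3, 4, 5 and 6, and at 24 h 19, 7 and 6 without mice 3, 4 and 5, so the shares and classes that follow hold for this fit only. The genes called at both times were Coro2a, Ctsw, Cxcr6, Fasl, Gzmb and Gzmc, 6 genes that make up 28.6% of the 8 h calls and 50.0% of the 24 h calls. Coro2a and Ctsw, like the other genes of this paragraph that are named nowhere else, were chosen after their values were seen. Of the 27 genes called at either time, 25 had a difference of the same sign at both, and in 17 it was smaller at 24 h. A call at 1 time only did not go with a called interaction except in Tcf7. The 15 genes called at 8 h only had interactions from -1.05 to 1.53, and 0 were called. Among them were Serpine2, a serine protease inhibitor (interaction 1.20, SE 0.457), and Sdc4, the proteoglycan syndecan 4 (1.53, SE 0.456). Both are among the 4 genes lower in cKO at 8 h, while most genes called at 8 h were higher. Cd8a, a marker of CD8+ T cells, was called higher in cKO at 8 h (log2 0.43, edgeR adjusted p = 0.0139). Its interaction was -0.09 (SE 0.119). The 6 genes called at 24 h only were Tcf7, Ifng, Cd2, Car2, Dennd5a and H2-Q9. Apart from Tcf7 these had interactions from 0.13 to 1.27, and 0 were called. Car2, carbonic anhydrase 2, had the largest (1.27, SE 0.499), and H2-Q9 shares sequence with other MHC class I genes, so its reads are uncertain.

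Of the 16 tested TCF/LEF factors, partners and Wnt feedback genes, 2 rose and 12 fell from 8 to 24 h in cKO, and 1 rose and 8 fell in WT. Over all genes 25.2% rose and 32.1% fell in cKO and 24.7% rose and 34.1% fell in WT, the shares against which this and each later list is to be read. The interaction was called lower for 1 of the 16, Tcf7, and its list median was -0.17, against 0.04 over all genes. At an unadjusted p under 0.05 there were 1 positive and 2 negative interactions in this list. Over all genes 2.51% were positive and 1.94% negative at that limit, the shares for this and each later list. After Tcf7 the smallest p belonged to Aes, a short Groucho-family co-regulator of TCF factors, with -0.70 (SE 0.300, unadjusted p = 0.0251). Aes rose in both genotypes, to 11.8 ± 0.54 TPM in cKO, with 11.0 ± 0.69 TPM in WT at 24 h, after 7.26 ± 2.16 TPM in cKO, with 4.09 ± 1.29 TPM in WT at 8 h (SD, n = 3 each).

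Naive and stem-like genes, among which Tcf7 itself is not counted, mostly fell in both genotypes. Of 24 tested, 19 fell and 3 rose in cKO, and 19 fell and 3 rose in WT, with median changes of -0.94 in cKO and -0.99 in WT. Their interaction had a median of -0.01, and edgeR called 0, with 3 positive and 1 negative at an unadjusted p under 0.05. Myb, a transcription factor of stem-like T cells (chromosome 10, 21124935 to 21160984, minus strand), had the smallest p among them. It was at 0.82, 0.26 and 0.96 TPM in cKO, with 2.11, 2.02 and 1.60 TPM in WT at 8 h, and at 1.19, 1.89 and 1.55 TPM in cKO, with 1.41, 1.86 and 1.52 TPM in WT at 24 h. The cKO libraries were below all WT libraries at 8 h and overlapped them at 24 h. Its interaction was 1.51 (SE 0.533, edgeR adjusted p = 0.972), on 28 to 97 counts per group, and it was 0.78 with limma on log2(TPM + 1). Dapl1 rose in both, by 1.44 in cKO and 2.00 in WT, and Cd27, a co-stimulatory receptor, fell in both, with an interaction of 0.26 (SE 0.118).

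Secreted cytokines and chemokines fell over these hours, with 10 of 15 called lower and 1 higher in cKO and 11 lower and 1 higher in WT. The median change was -1.08 in cKO and -1.60 in WT. The median interaction was 0.32, and it stayed between 0.15 and 0.45 in the alternatives; 11 of 15 members were positive, against 56.7% of all genes, and edgeR called 0, with 3 positive and 0 negative at an unadjusted p under 0.05. The per-mouse changes were higher in cKO without overlap in 6 of the 15 and lower in 0, against 5.71% and 3.92% of all genes. The alternatives reuse the same mice, so their range is not the spread between mice. The list medians by mouse had a spread of 0.305 (root of the summed variances of cKO and WT mice), close to the median itself. Members of the list are not independent, and whether it departs from all genes was not tested. Tnf, which encodes tumour necrosis factor, was at 931, 888 and 936 TPM in cKO, with 811, 955 and 882 TPM in WT at 8 h. By 24 h its levels were 317, 309 and 287 TPM in cKO, with 238, 241 and 225 TPM in WT. The genotypes overlapped at 8 h and were separate at 24 h, and the interaction was 0.39 (SE 0.162, unadjusted p = 0.0240). Lta, lymphotoxin alpha, fell in WT (-0.57), had a change of -0.21 in cKO that missed the test, and had an interaction of 0.36 (SE 0.136). The summed level of the list was 49007 to 52061 TPM in cKO, with 39530 to 48907 TPM in WT at 8 h, and 12213 to 15690 TPM in cKO, with 10044 to 11010 TPM in WT at 24 h. In bulk libraries fewer cells that express a gene and less RNA per cell cannot be told apart.

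Of the 16 effector and cytotoxic genes, 3 rose and 8 fell in cKO, and 3 rose and 8 fell in WT, with a median interaction of 0.18. Over all genes 25.2% rose and 32.1% fell in cKO, and 24.7% rose and 34.1% fell in WT. Whether the list departs from these shares was not tested. Genes of T cell receptor signalling and the immediate early response fell, 22 of 28 in cKO and 24 of 28 in WT, with 1 rising in each. Their median interaction was 0.13. Nr4a2, an orphan nuclear receptor induced by T cell receptor signals, fell to 19.4 ± 4.58 TPM in cKO, with 11.1 ± 1.55 TPM in WT at 24 h, with an interaction of 0.62 (SE 0.236). Myc, the growth regulator, was at 473 ± 6.40 TPM in cKO, with 441 ± 22.9 TPM in WT at 24 h, with an interaction of 0.29 (SE 0.132). Among 18 co-stimulatory and inhibitory receptors, 6 rose and 9 fell in cKO and 6 rose and 8 fell in WT, with a median interaction of 0.09. Cd2, an adhesion and co-stimulatory receptor, fell in both and had an interaction of 0.35 (SE 0.146), and Cd160 had 0.46 (SE 0.175).

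The remaining lists of surface receptors and regulators are set against the 57.3% of all genes called over time in cKO and 58.7% in WT. Of 16 chemokine receptors and integrins, 6 rose and 7 fell in cKO and 3 rose and 7 fell in WT, with a median interaction of 0.16. Of 22 cytokine receptors, STAT and SOCS genes, 2 rose and 10 fell in cKO and 3 rose and 8 fell in WT, with a median interaction of 0.04. Socs2, a feedback inhibitor of cytokine signalling, rose in both genotypes and had an interaction of -2.57 (SE 0.839), with 24 counts in cKO and 4 in WT at 8 h; with limma it was -0.80. Of 16 effector and memory transcription factors, 2 rose and 8 fell in cKO and 3 rose and 8 fell in WT, with a median interaction of -0.09. Interferon-stimulated genes fell, 21 of 24 in cKO and 16 of 24 in WT, and their median interaction was -0.04. In none of these lists, nor in the cytotoxic, T cell receptor and co-stimulatory ones, did edgeR call an interaction. The counts that follow are to be read against 2.51% positive and 1.94% negative over all genes. Lists share members, so they are not separate: Ifng and Tnf count as positive in the cytotoxic and the cytokine list. Cd27 counts as positive in the naive and the co-stimulatory list. At an unadjusted p under 0.05 there were 4 positive and 1 negative among cytotoxic genes, 3 and 0 among T cell receptor genes, 4 and 0 among co-stimulatory receptors, 1 and 0 among chemokine receptors, 0 and 2 among cytokine receptors, 0 and 1 among interferon-stimulated genes, and 0 of either sign among transcription factors. The median of the naive, co-stimulatory, chemokine receptor, cytokine receptor, interferon and amino acid lists, and of the replication and mitosis lists, changed sign in at least 1 alternative.

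Genes of DNA replication rose in both genotypes, 28 of 28, with median changes of 2.62 in cKO and 2.57 in WT and a median interaction of 0.06. Rfc3, a subunit of the clamp loader, was at 184 ± 11.4 TPM in cKO, with 165 ± 0.32 TPM in WT at 24 h, after 28.8 ± 3.28 TPM in cKO, with 32.0 ± 1.16 TPM in WT at 8 h (SD, n = 3 each). Its interaction was 0.37 (SE 0.169). Genes of mitosis and the spindle rose in 24 of 24 in both genotypes, with medians of 5.72 in cKO and 5.93 in WT. Their median interaction was -0.09, and it ran from -0.39 to 0.02 in the alternatives. The summed level of the mitosis list was 40.0 to 54.1 TPM in cKO, with 44.3 to 58.6 TPM in WT at 8 h, where the genotypes overlapped. At 24 h it was 1955 to 2328 TPM in cKO, with 2532 to 2631 TPM in WT, without overlap. Of the replication genes 2 positive and 1 negative interactions, and of the mitosis genes 0 positive and 1 negative, had an unadjusted p under 0.05 in edgeR, and 0 were called.

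Of the metabolic lists, 3 had mostly positive interactions, all of them small. Of 24 ribosome biogenesis genes 21 were positive (87.5%), with a median of 0.16 that stayed between 0.08 and 0.23 in the alternatives. In that list 11 genes fell and 1 rose in cKO, and 18 fell and 1 rose in WT. Of 21 sterol and fatty acid synthesis genes 18 were positive (85.7%), with a median of 0.17 that stayed between 0.11 and 0.26. In that list 14 genes rose and 1 fell in cKO, and 11 rose and 4 fell in WT. Of 18 glycolysis and glucose uptake genes 15 were positive (83.3%), with a median of 0.11 that stayed between 0.01 and 0.17. In that list 14 genes rose in cKO and 11 in WT, and 0 fell in either. Over all genes 56.7% were positive, with a median of 0.04. The interaction was called by edgeR in 0 members, with 1 positive and 1 negative ribosome biogenesis gene, 4 positive sterol and fatty acid genes and 1 positive glycolysis gene at an unadjusted p under 0.05. The list medians by mouse had a spread of 0.156 for ribosome biogenesis, 0.172 for sterol and fatty acid synthesis and 0.133 for glycolysis. That spread is the root of the summed variances of cKO and WT mice, and no list median stood clear of it. The ranges over alternatives reuse the same mice. Genes of a list are not independent of each other, and a shift of these lists was not tested.

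Fdft1, squalene synthase (chromosome 14, 63145150 to 63179578, minus strand), had the smallest p of the metabolic genes. It was at 14.6, 14.6 and 12.6 TPM in cKO, with 19.4, 17.8 and 17.3 TPM in WT at 8 h, and at 27.8, 30.6 and 28.3 TPM in cKO, with 24.6, 28.5 and 25.4 TPM in WT at 24 h. The cKO libraries were below all WT libraries at 8 h and overlapped them at 24 h. Its change was 1.00 in cKO and 0.43 in WT, and the interaction was 0.58 (SE 0.196, unadjusted p = 0.00561). Sc4mol, a sterol oxidase of the same pathway, had 0.49 (SE 0.208) and Fdps, farnesyl diphosphate synthase, had 0.33 (SE 0.155). Wdr43, a ribosome assembly factor, had 0.28 (SE 0.123), and Ldha, lactate dehydrogenase A, had 0.27 (SE 0.129). Of 22 genes of amino acid uptake, synthesis and stress response, 15 rose and 3 fell in cKO and 15 rose and 5 fell in WT, with a median interaction of -0.04 and 0 members at an unadjusted p under 0.05 in edgeR. Slc7a5, the large neutral amino acid transporter, rose by 0.67 in cKO and 0.99 in WT, with an interaction of -0.31 (SE 0.228).

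**Figure D5:**
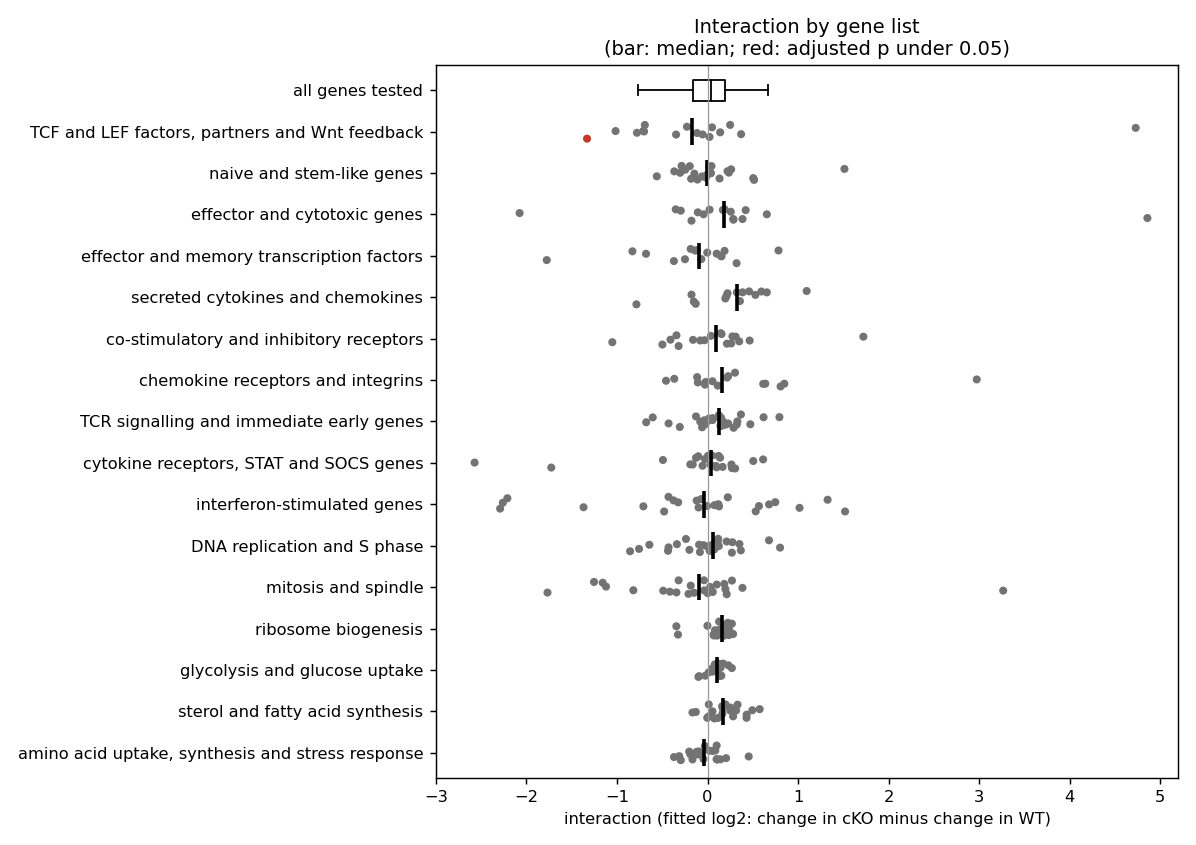
Fitted interaction (log2, change in cKO minus change in WT) of each tested member of 16 gene lists, 1 point per gene with a bar at the list median. The box above gives the quartiles and median of all genes tested, and its whiskers stop short of the extreme values. Tcf7 (red) is the 1 called member, and the list medians lie between -0.17 and 0.32.

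Most markers of other cell types were low. The 28 markers covered CD4 and regulatory T cells, B cells, myeloid cells, dendritic cells, NK cells, red cells and stroma. Of these, 24 stayed at or below 1 TPM in all 12 libraries and 3 (Pax5, Klra4 and Beta-s) were at 0 in all of them. The summed level was 21.7 to 31.9 TPM in cKO, with 17.2 to 26.0 TPM in WT at 8 h, and 28.4 to 29.6 TPM in cKO, with 24.9 to 29.0 TPM in WT at 24 h. Of 8 that could be tested, edgeR called 0 interactions, with 1 negative at an unadjusted p under 0.05. Cd79b, a chain of the B cell receptor, was among the 19 uncalled genes with an interaction of -1.21 (SE 0.394). Its 8 h values rest on 51 counts in cKO and 25 in WT. It rose in both genotypes, to 15.1 ± 0.72 TPM in cKO, with 16.6 ± 1.47 TPM in WT at 24 h (SD, n = 3 each). Pecam1, an adhesion molecule of endothelium that naive T cells also carry, was at 11.7 to 19.0 TPM in cKO, with 11.4 to 18.6 TPM in WT at 8 h, and at 3.02 to 4.12 TPM in cKO, with 2.65 to 4.04 TPM in WT at 24 h. Zbtb46, a transcription factor of dendritic cells, was at 2.63 to 4.20 TPM in cKO, with 2.51 to 2.95 TPM in WT at 8 h, and at 7.57 to 9.31 TPM in cKO, with 4.87 to 5.72 TPM in WT at 24 h, where the genotypes did not overlap; its interaction was 0.345 (SE 0.467). Xcr1, a chemokine receptor of dendritic cells, reached at most 2.22 TPM. The part of these markers in any result was not tested. The B cell markers Ms4a1, Cd79a, Pax5 and Cd22 were at most 0.91 TPM in any of these libraries.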

How the data were processed

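RNA-seq was analysed from 24 Smart-seq2 libraries of 6 mice, 12 of which enter the comparison; replicates are separate mice by the labels. The deposited files give an expected count and TPM per gene, per the file headers. STAR, RSEM, DESeq2 and mm10 are named in the submitters' processing notes, with versions not given in the sources used here. Expected counts were rounded, and all 24 libraries were fitted with a mean for each of 8 groups in edgeR 4.0.16 (R 4.3.3; filterByExpr, TMM, robust quasi-likelihood F tests, Benjamini-Hochberg adjustment within each comparison). The filter kept 11470 of 23420 genes. Standard errors are the fitted log2 value divided by the root of F, and 95% intervals are unadjusted. Changes by mouse use TMM-scaled log2 CPM with a prior count of 2. Gene positions come from GENCODE M21 (mm10).

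The alternatives were DESeq2 1.42.0, limma 3.58.1 on log2(TPM + 1) with at least 1 TPM in 3 libraries, RLE factors, no filter, a mean of 5 CPM, 12 libraries alone, Rn45s removed, each mouse left out, the 8 h libraries of mice 2 and 5 left out, and mouse as a block in those 12 libraries. Equal numbers mark the same mouse in the labels; deviations from group means at 8 and 24 h correlated within a mouse at 0.0686, 0.0372 and 0.0781 in cKO and 0.0489, 0.0589 and -0.0478 in WT.

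Named genes are those called that averaged 10 TPM or more in their highest group, then those with the smallest interaction p to make 20, without Gm and Rik models; Tcf7, Lef1, Cxcr6, Cd28, Fasl, Gzmb, Gzmc and Ifng; and the 3 members of each list with the smallest interaction p; some genes that the rule names are not reported here. The comparison, genes and lists were chosen with earlier results of these data known. The main edgeR interaction fit was run on simulated counts without mouse effects. The other fits, the lists and the changes by mouse were not tested in that way.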

Additional observations from a re-analysis of the deposited data

Results flagged for a closer look

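Tcf7 was flagged because its change from 8 to 24 h differed between cKO and WT by the test of the difference itself, with an interaction of -1.33 on the log2 scale (edgeR adjusted p = 0.00032). The comparison was chosen with its parting at 24 h known, so the call is no independent evidence. It was lost with the 12 libraries of 8 and 24 h alone (adjusted p = 0.615) and with mouse as a replicate block in those 12 (adjusted p = 0.307). Among the named genes, 4 more were flagged because every cKO mouse moved one way and every WT mouse the other, and in none did the adjusted interaction test pass (edgeR adjusted p = 0.972 for each). These were Klhl25 (interaction -0.87, per-mouse changes of -0.25, -0.02 and -0.36 in cKO mice against 0.22, 0.83 and 0.88 in WT), Cybasc3 (-0.54, with -0.46, -0.33 and -0.03 in cKO against 0.29, 0.35 and 0.12 in WT), Myb (1.51, with 0.44, 2.31 and 0.66 in cKO against -0.52, -0.31 and -0.14 in WT) and Serpine2 (1.20, with 0.38, 1.33 and 1.05 in cKO against -0.07, -0.66 and -0.30 in WT). Among all genes tested, 71 (0.619%) had opposite signs in this way.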

How the results depend on the processing

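The interaction called 1 gene, and 2 without a filter (Tcf7 and Igfbp4, -0.90), 0 with the 12 libraries alone (542 at an unadjusted p under 0.05), 2 with limma (Tcf7 and Fasl, -1.76) and 0 to 1 with a mouse left out. The replicate block, fitted over the same 12 libraries, called 1 gene, Gm14430 (-9.18; 0 counts in WT at 8 h), and not Tcf7 (-1.35, adjusted p = 0.307); it moved no count of calls over time by over 1.5 times. Against 21 calls at 8 h there were 135 without a filter, 67 with DESeq2, 13 without the 8 h libraries of mice 2 and 5, and 7 to 66 with a mouse left out. Against 12 calls at 24 h there were 32 without a filter, 27 with DESeq2, and 6 to 19 with a mouse left out. The Gzmc interaction turned to 0.05 without mouse 2, 0.08 without mouse 5 and 0.02 without the 8 h libraries of both (range -0.14 to 0.08 with a mouse left out), and that of Klrb1c to 0.12 without mouse 5 (range -3.25 to 0.12). The CD8 marker median moved to -0.21 without mouse 3. The cause was not tested. Of 1043 single-gene values, 1034 kept direction and side of the threshold. Some settings moved the median change of all genes by over 0.1: in cKO by 0.11 (no filter), and in WT by 0.14 (no filter) and 0.11 (limma, replicate block, without mouse 3). With 3 mice per genotype and a median standard error of 0.245, small differences are not detectable.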

Other observations

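Several genes below the level limit of 10 TPM had an interaction p as small as those of the genes named in the report, and none was called (edgeR adjusted p = 0.972 for each); they were chosen after their values were seen. Adora2b, an adenosine receptor, had 2 counts over the cKO libraries and 28 over the WT libraries at 8 h, and was at 2.06 ± 0.45 TPM in cKO and 1.32 ± 0.54 TPM in WT at 24 h (SD, n = 3 each). Matk, a kinase that restrains Src family kinases, was at 6.40 ± 2.37 TPM in cKO and 8.28 ± 1.86 TPM in WT at 8 h, and at 1.91 ± 0.35 TPM in cKO and 0.847 ± 0.122 TPM in WT at 24 h, an interaction of 1.59. Gnb4, a G protein beta subunit, was at 2.15 ± 0.78 TPM in cKO and 4.19 ± 0.81 TPM in WT at 8 h, and at 7.33 ± 0.36 TPM in cKO and 6.04 ± 0.73 TPM in WT at 24 h, an interaction of 1.32. Arid4a, which encodes a retinoblastoma-binding protein, had an interaction of 1.00, and Sfmbt1, a Polycomb-type gene, had 0.73.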
